A study of Mus musculus with 9 samples.

Results

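The genes described here mark microglia, the resident macrophages of the retina, and encode C1q, the protein that starts the classical complement pathway. They are 9 of the 35397 genes in the deposited table, picked by symbol through their Ensembl identifiers. 6 of them are identity genes (Cx3cr1, P2ry12, Csf1r, Tyrobp, Ctss and Laptm5), and 3 encode the C1q chains (C1qa, C1qb and C1qc). RNA was sequenced from retinas of db/db mice, which lack a working leptin receptor and become obese and diabetic, and of wild-type mice. There were 4 db/db libraries (db/db 1, 3, 4 and 5) and 5 wild-type libraries (wild type 1 to 5). The labels name the tissue and the genotype. The sources used here do not give age, strain background, sex or any treatment. They also do not say that each library is its own animal, and a p-value here therefore covers only library-to-library spread, part of which may be technical. The stated design is to look at retinal gene expression in both genotypes, under a title about inflammation in diabetic retinopathy.

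Microglia depend on signals through the receptor CSF1R for their survival, and they sense neurons through CX3CR1, the receptor for fractalkine, and through P2RY12, a receptor for purine nucleotides. In the resting state they survey the retina from the plexiform layers, and on activation they lower genes such as P2ry12. C1q is assembled from A, B and C chains, is made in the central nervous system largely by microglia, and tags synapses and debris for removal. Csf1r, Tyrobp, Ctss, Laptm5 and the C1q genes are also expressed by other macrophages. In RNA from whole retina, fewer microglia and less RNA per microglial cell cannot be told apart.

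Levels are FPKM, fragments scaled by transcript length and by library depth, which are comparable between genes because they are per length. All 9 genes were expressed at a low level, with means over the 9 libraries between 0.664 FPKM for Laptm5 and 6.88 FPKM for Ctss. The means of Cx3cr1, P2ry12 and Laptm5 were under 1 FPKM, the filter used before testing, so 6 of the 9 members were tested with the 14588 genes that passed and 3 were read from a fit without the filter. The values moved in steps of 1 read, from which 36.6 to 47.9 M reads per library were recovered. Of the low values 61.4% to 65.7% per library were even numbers of reads. A fragment may thus often count as more than 1 read, and independent fragments may be fewer than the reads given here. The members held between 30 reads (Tyrobp in db/db 4) and 819 reads (Csf1r in wild type 1) per library, and 1468 to 2085 reads together in db/db libraries against 1758 to 2816 in wild-type libraries. The tissue label fits the rod genes, which summed to 11295 to 12971 FPKM in db/db and 11026 to 11847 FPKM in wild type over 8 markers. Library db/db 1 stood apart by transcript length. Relative to the wild-type mean, its median tested gene with a longest transcript under 1000 bases was higher by 0.46 on the log2(FPKM + 1) scale, and its median gene over 4000 bases stood at -0.26. In the other 8 libraries these medians lay between -0.12 and 0.02, and between -0.05 and 0.02. The deviations also had rank correlations with GC content of 0.21, 0.24, 0.39 and 0.58 in db/db 1, 3, 4 and 5, against -0.21 to 0.18 in wild type, so that GC content and genotype moved together. Log2 changes of the members that rest on db/db 1 are therefore also given without it, and those that move with a GC correction are given with it.

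The promoters of C1qb, C1qc and 2 identity genes, Ctss and P2ry12, are shown. They are the members' promoters that hold the motif marked below. The levels of C1qb, C1qc and Ctss moved together from library to library (below), while P2ry12 had correlations of 0.14 to 0.35 with them. Sequences are from RefSeq on GRCm38.p6, 250 bases before to 50 bases after the annotated start, written 5′ to 3′ on the strand of the gene. Of the 9 members 6 had an entry (all but Csf1r, Tyrobp and C1qa). Capitals mark AGGAAGT or its reverse complement ACTTCCT, the core of sites bound by PU.1, the myeloid transcription factor encoded by Spi1.
C1qb (chr4:136886151-136886450, minus strand): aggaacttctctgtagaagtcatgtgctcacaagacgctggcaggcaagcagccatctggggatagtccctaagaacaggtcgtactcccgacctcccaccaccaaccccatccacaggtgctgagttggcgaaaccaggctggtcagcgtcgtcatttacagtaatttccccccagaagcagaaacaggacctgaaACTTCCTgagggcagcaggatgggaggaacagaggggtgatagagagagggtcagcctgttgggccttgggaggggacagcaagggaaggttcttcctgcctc
C1qc (chr4:136892865-136893164, minus strand): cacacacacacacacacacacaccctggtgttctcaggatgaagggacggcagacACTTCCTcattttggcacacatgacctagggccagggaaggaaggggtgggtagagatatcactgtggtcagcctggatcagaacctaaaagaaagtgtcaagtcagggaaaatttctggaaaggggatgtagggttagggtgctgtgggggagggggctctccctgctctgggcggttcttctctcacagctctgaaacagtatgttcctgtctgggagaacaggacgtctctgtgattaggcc
Ctss (chr3:95526536-95526835, plus strand): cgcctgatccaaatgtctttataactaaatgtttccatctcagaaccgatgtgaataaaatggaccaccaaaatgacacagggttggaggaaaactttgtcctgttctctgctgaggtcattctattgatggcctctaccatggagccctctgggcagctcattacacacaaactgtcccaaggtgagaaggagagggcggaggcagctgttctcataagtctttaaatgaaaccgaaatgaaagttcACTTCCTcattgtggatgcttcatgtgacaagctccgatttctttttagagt
P2ry12 (chr3:59262936-59263235, minus strand): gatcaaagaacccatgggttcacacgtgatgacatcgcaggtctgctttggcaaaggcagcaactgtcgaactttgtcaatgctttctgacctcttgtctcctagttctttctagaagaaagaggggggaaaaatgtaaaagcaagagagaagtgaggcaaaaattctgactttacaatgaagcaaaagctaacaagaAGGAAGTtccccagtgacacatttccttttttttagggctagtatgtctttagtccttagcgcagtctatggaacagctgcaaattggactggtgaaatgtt

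AGGAAGT, searched on both strands, occurred in 4 of the 6 members' windows (P2ry12, Ctss, C1qb and C1qc), against 9.35% of 32851 promoters of the same length. The longer GAGGAAGT, which contains it, occurred in 2 of the 6 (Ctss and C1qc), against 3.20% of all promoters. The match began 52 bases before the start in P2ry12, 53 in C1qb, 195 in C1qc and 2 in Ctss, where it ran across the start. Distances are to the RefSeq start of each window, which equals the gene start in the GENCODE positions used elsewhere here only for Ctss. The P2ry12 window lies wholly upstream of that gene start, and the Cx3cr1 window lies wholly inside the gene. The windows of Cx3cr1 and Laptm5 held neither. The motif was chosen after these windows were seen, and a match is a description of letters only.

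With all 9 libraries none of the 9 genes differed between db/db and wild type at an adjusted p under 0.05 (limma on log2(FPKM + 1), Benjamini-Hochberg over all genes of the fit). In the same fit 0.5% of the 14588 tested genes passed in either direction, 0.267% of them as lower, and 0.0254% of all 35397 genes did without the filter. On the unadjusted p under 0.05, 2 of the 9 were lower in db/db (Cx3cr1 and P2ry12), against 11.7% of all genes without the filter and 19.3% of genes past it, in either direction. Both averaged under 1 FPKM, as did 20809 genes, of which 3.69% were lower at that p. At 0.786 and 0.963 FPKM they lie near the top of that range, so 3.69% is not the share at their level. Without db/db 1 only C1qa had such a p, where 4392 of the 14588 tested genes did. With the GC correction 5 members did (the pair, Csf1r, Laptm5 and C1qa), where 1966 tested genes and 4358 of all 35397 did. With GC and length correction 7 members did, where 2525 tested genes and 4276 of all genes did. With limma-voom on the recovered reads none passed, where 0.759% of genes past the filter did. There 3 members had an unadjusted p under 0.05 (the same pair and Laptm5), against 12.7% of all genes with recovered reads and 19.8% of those past the filter. On the recovered reads without db/db 1 the pair and C1qa had such a p, where 4464 of 14490 genes past the filter and 5897 of 34047 without it did. The log2 change was below 0 for 8 of the 9 members, with a median of -0.20, while 49.3% of tested genes, and 51.3% of all genes without the filter, were below 0 and the median of the tested genes was 0.0035. For none of the 9 were the groups free of overlap, where 11.6% of tested genes were, and 6.38% with db/db lower.

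**Figure D1:**
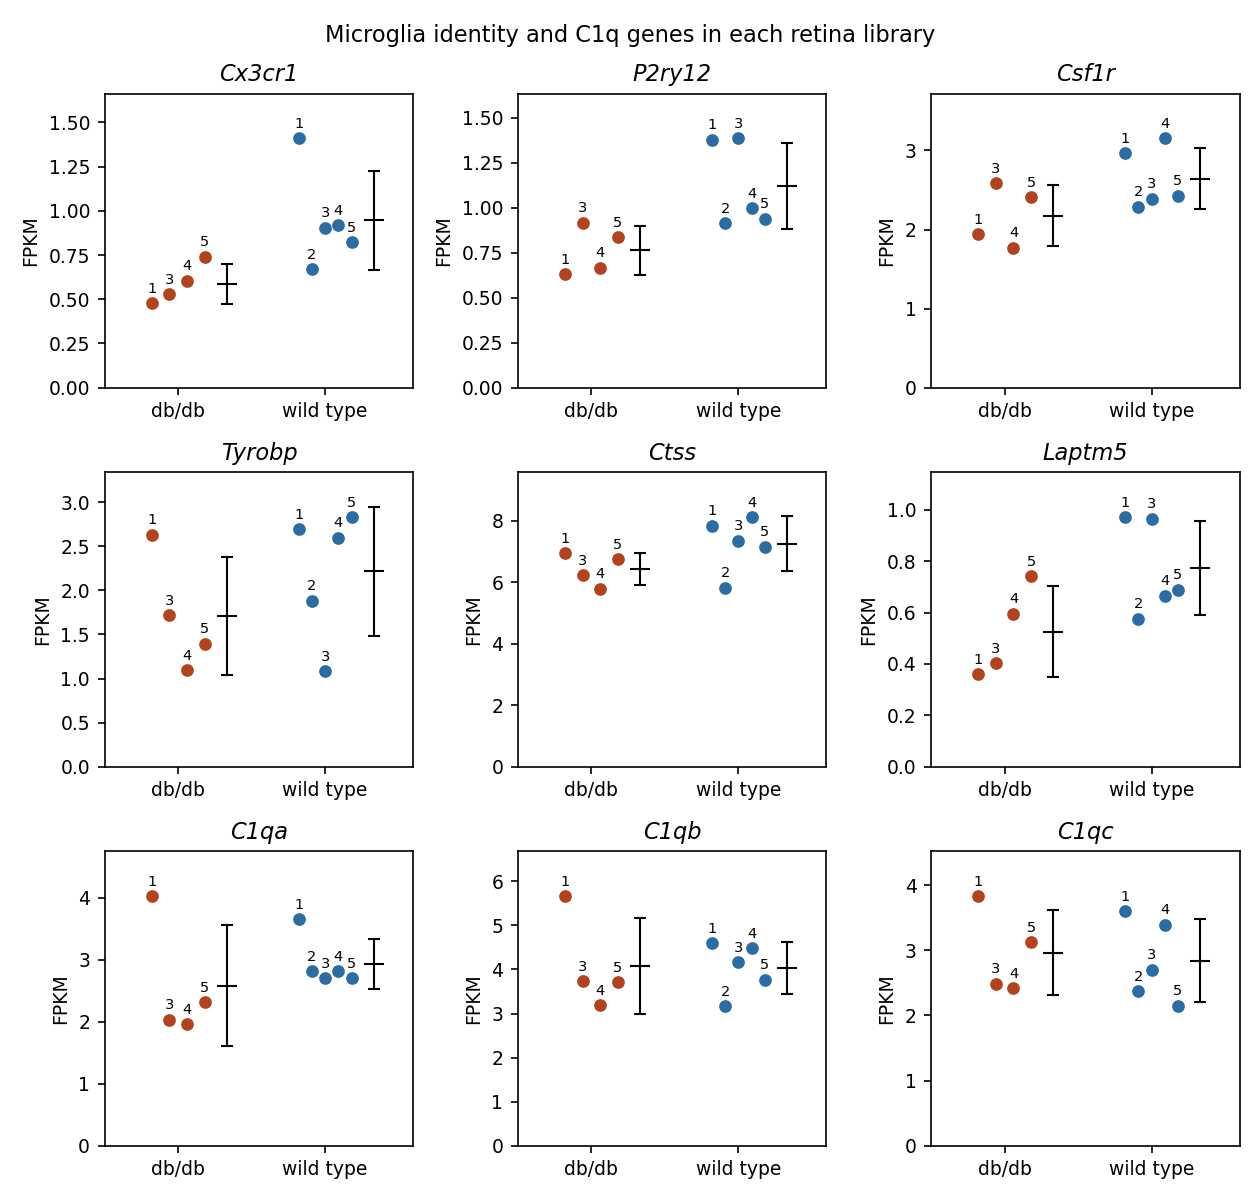
FPKM of each gene in 4 db/db libraries (red, left) and 5 wild-type libraries (blue, right), with the library number above each point and the mean ± SD in black. All axes start at 0. Cx3cr1, P2ry12 and Laptm5 lie under 1 FPKM in every db/db library, and the C1q genes are highest in db/db 1.

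Cx3cr1 (ENSMUSG00000052336, chromosome 9, 119901616 to 120069879, mm10, minus strand) encodes the fractalkine receptor. It had 0.476, 0.529, 0.604 and 0.740 FPKM in db/db 1, 3, 4 and 5, against 1.41, 0.671, 0.905, 0.919 and 0.823 FPKM in wild type 1 to 5. Of the db/db libraries 3 lay below the lowest wild-type library, and db/db 5 lay above wild type 2 alone. Its mean was 0.587 ± 0.114 FPKM (SD, n = 4) in db/db and 0.946 ± 0.278 FPKM (SD, n = 5) in wild type, a ratio of 0.621. The log2 change was -0.29 (SE 0.11, unadjusted p = 0.0289, limma adjusted p = 0.352). On this scale a pseudocount of 1 FPKM understates the change of so low a gene, and on the recovered reads it was -0.68 (SE 0.23, limma-voom adjusted p = 0.240), with 99 to 122 reads per db/db library and 130 to 304 per wild-type library. Wild type 1 alone held 304 reads, and without it the log2 change was -0.21.

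P2ry12 (ENSMUSG00000036353, chromosome 3, 59216272 to 59262871, minus strand) encodes the nucleotide receptor that steers microglial processes. It had 0.630, 0.918, 0.668 and 0.837 FPKM in db/db 1, 3, 4 and 5, against 1.38, 0.913, 1.39, 0.999 and 0.939 FPKM in wild type 1 to 5. All 4 db/db values were below the wild-type median of 0.999 FPKM, and db/db 3 overlapped wild type 2. The means were 0.763 ± 0.137 FPKM (SD, n = 4) in db/db and 1.12 ± 0.239 FPKM (SD, n = 5) in wild type, with a log2 change of -0.26 (SE 0.10, unadjusted p = 0.0287, limma adjusted p = 0.351) and of -0.55 on the recovered reads (SE 0.21, limma-voom adjusted p = 0.300). Without db/db 1 these changes were -0.23 (limma adjusted p = 0.344) and -0.46 (limma-voom unadjusted p = 0.0457, adjusted p = 0.274). P2ry12 lies within Med12l on the opposite strand, but their exons share only 9 bases.

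Csf1r (ENSMUSG00000024621, chromosome 18, 61100598 to 61132149, plus strand) encodes the receptor for the growth factors CSF1 and IL-34. It had 1.94, 2.58, 1.77 and 2.41 FPKM in db/db 1, 3, 4 and 5, against 2.96, 2.29, 2.39, 3.15 and 2.43 FPKM in wild type 1 to 5. The groups overlapped, with db/db 1 and db/db 4 below every wild-type library. The log2 change was -0.20 (SE 0.11, limma adjusted p = 0.327), and leaving out db/db 1 or correcting for GC content moved it to -0.17 and -0.28. On the recovered reads, where no pseudocount of 1 FPKM narrows the change, it was -0.29, with a 95% interval of -0.61 to 0.03. Csf1r shares 873 of its 5774 exon bases with Hmgxb3 on the opposite strand (mean 4.21 FPKM), and the strand of counting is not given, and reads of the 2 genes in that stretch cannot be told apart.

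Tyrobp (ENSMUSG00000030579, chromosome 7, 30413760 to 30417585, plus strand) encodes DAP12, the adaptor through which TREM2 and related receptors signal. It had 2.63, 1.72, 1.09 and 1.39 FPKM in db/db 1, 3, 4 and 5, against 2.69, 1.88, 1.08, 2.60 and 2.83 FPKM in wild type 1 to 5. It was the most variable member, with a spread of 2.41-fold among db/db libraries and 2.61-fold among wild-type libraries, and it rested on 30 to 86 reads per library. Its log2 change was -0.24 (SE 0.21, limma adjusted p = 0.538), and -0.40 without db/db 1 (SE 0.19, limma adjusted p = 0.203). With the GC correction and all 9 libraries it was -0.35 (limma adjusted p = 0.462).

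Ctss (ENSMUSG00000038642, chromosome 3, 95526786 to 95556403, plus strand) encodes cathepsin S, a lysosomal protease of antigen-presenting cells. It was the most expressed member, at 6.93, 6.22, 5.78 and 6.74 FPKM in db/db 1, 3, 4 and 5, against 7.83, 5.82, 7.35, 8.10 and 7.16 FPKM in wild type 1 to 5. All db/db values were below the wild-type median of 7.35 FPKM, while wild type 2 was lower than 3 of the 4. The log2 change was -0.15 (SE 0.09, limma adjusted p = 0.394). It was -0.10 with the GC correction and -0.18 without db/db 1 (limma adjusted p = 0.622 and 0.216).

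Laptm5 (ENSMUSG00000028581, chromosome 4, 130913125 to 130936141, plus strand) encodes a lysosomal membrane protein of blood-derived and microglial cells. It had the lowest level, at 0.361, 0.403, 0.596 and 0.743 FPKM in db/db 1, 3, 4 and 5, against 0.971, 0.577, 0.967, 0.665 and 0.689 FPKM in wild type 1 to 5. The db/db 1 and db/db 3 values were below all wild-type values and db/db 5 was above 3 of them. The log2 change was -0.22 (SE 0.10, unadjusted p = 0.0656, limma adjusted p = 0.460), and -0.61 on the recovered reads (SE 0.25, unadjusted p = 0.0323, limma-voom adjusted p = 0.349). Without db/db 1 these were -0.17 (limma adjusted p = 0.515) and -0.45 (limma-voom unadjusted p = 0.0809, adjusted p = 0.367). With the GC correction and all 9 libraries the log2 change was -0.26 (limma adjusted p = 0.363).

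The 3 C1q genes lie side by side on the minus strand of chromosome 4, within 18675 bases (136880129 to 136898803), in the order C1qb, C1qc and C1qa. C1qa (ENSMUSG00000036887) had 4.02, 2.03, 1.96 and 2.31 FPKM in db/db 1, 3, 4 and 5, against 3.66, 2.82, 2.70, 2.81 and 2.70 FPKM in wild type 1 to 5. Thus db/db 1 was the highest of all 9 libraries, and the other 3 db/db libraries were below every wild-type one. With all 9 libraries its log2 change was -0.17 (SE 0.15, limma adjusted p = 0.573), and -0.31 with the GC correction (adjusted p = 0.339). With GC and length correction of all 9 libraries it was -0.39 (limma adjusted p = 0.0551). Without db/db 1 C1qa fell in db/db, at 2.10 ± 0.185 FPKM (SD, n = 3) against 2.94 ± 0.407 FPKM (SD, n = 5) in wild type, which is -0.34 on the log2 scale (SE 0.09) and lower in 3 of 3 db/db libraries. Its limma adjusted p was then 0.0396, in a range of 0.0227 to 0.764 over all 24 alternatives.

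In that fit 10.6% of tested genes passed and 5.84% passed as lower, and 11.5% of tested genes had their 3 db/db values below all wild-type ones, so that a call there is less unusual than with all libraries. C1qa passed again with correction for GC content and db/db 1 left out (adjusted p = 0.0227), but not on the recovered reads without db/db 1 (log2 change -0.48, limma-voom adjusted p = 0.0635). No other member passed without db/db 1.

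C1qb (ENSMUSG00000036905) had 5.66, 3.74, 3.19 and 3.72 FPKM in db/db 1, 3, 4 and 5, against 4.59, 3.16, 4.17, 4.49 and 3.77 FPKM in wild type 1 to 5. C1qc (ENSMUSG00000036896) had 3.83, 2.49, 2.42 and 3.13 FPKM in db/db 1, 3, 4 and 5, against 3.60, 2.37, 2.70, 3.39 and 2.15 FPKM in wild type 1 to 5. In both, db/db 1 was again the highest library and the other db/db values fell within the wild-type range. The log2 change of C1qb was -0.0029 (SE 0.14, limma adjusted p = 0.991), and that of C1qc was 0.05 (SE 0.14, limma adjusted p = 0.878). On the recovered reads the 95% intervals of the log2 change were -0.41 to 0.41 for C1qb and -0.38 to 0.50 for C1qc. Leaving out db/db 1 turned C1qc to -0.05 and moved C1qb to -0.14 (adjusted p = 0.820 and 0.372), and the GC correction gave -0.07 and -0.12 (adjusted p = 0.798 and 0.666).

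**Figure D2:**
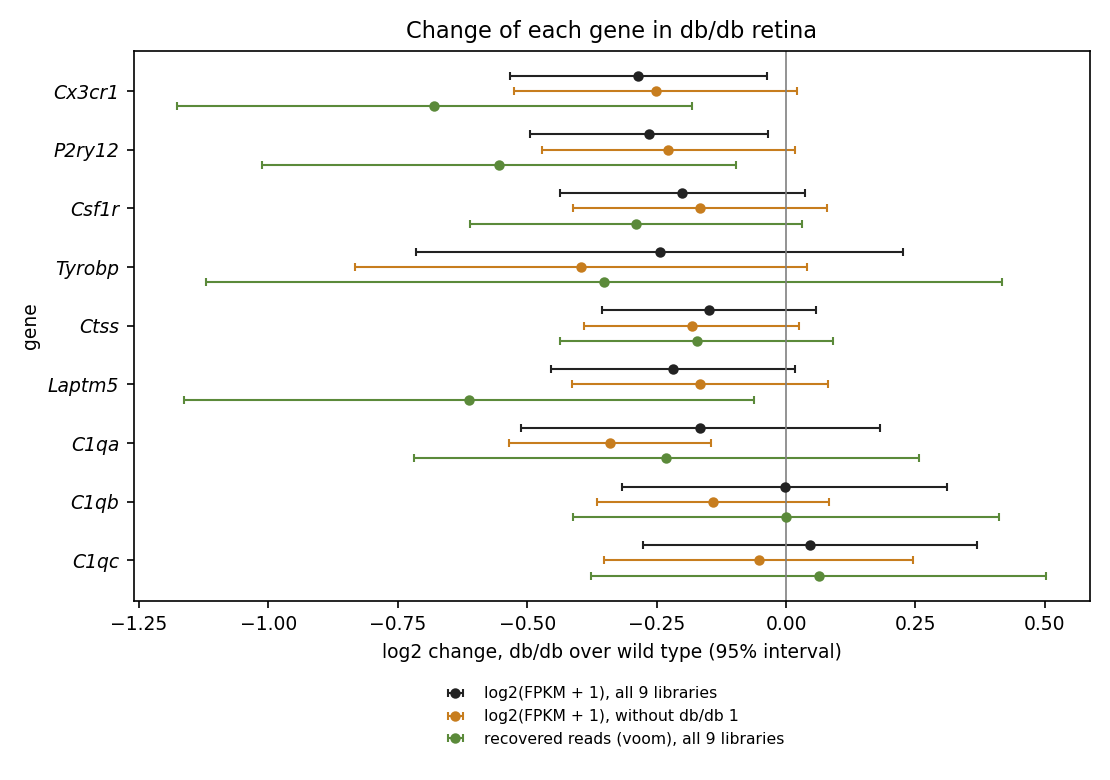
Log2 change of each gene in db/db over wild type with its 95% interval, from limma on log2(FPKM + 1) with all 9 libraries (black), without db/db 1 (orange) and from limma-voom on recovered reads (green). The black points run from -0.29 for Cx3cr1 to 0.05 for C1qc, and the orange interval of C1qa lies wholly below 0.

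The level of the 3 chains relative to each other was also compared within libraries, which no depth scaling can change. C1qa over C1qb was 0.711, 0.543, 0.615 and 0.622 in db/db 1, 3, 4 and 5, against 0.797, 0.891, 0.647, 0.627 and 0.716 in wild type 1 to 5. The difference in its log2 was -0.23 (exact two-sided permutation p = 0.0794, adjusted over the 3 ratios 0.190). For C1qa over C1qc it was -0.31 (exact p = 0.127, adjusted 0.190) and for C1qb over C1qc -0.07 (exact p = 0.571, adjusted 0.571). Each way of splitting the 9 libraries into 4 and 5 has a share of 0.00794, and the smallest two-sided p lies above it. With all 9 libraries none of the 3 ratios passed. Without db/db 1 the differences were -0.30 for C1qa over C1qb, -0.41 for C1qa over C1qc and -0.11 for C1qb over C1qc. Their adjusted exact permutation p was 0.0536, 0.0536 and 0.464. Both C1qa ratios were then lower in each db/db library than in any wild-type library. So few libraries allow no smaller p for either, so the test cannot settle whether they differ.

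In db/db retinas the order of mean levels was Ctss, C1qb, C1qc, C1qa, Csf1r, Tyrobp, P2ry12, Cx3cr1 and Laptm5, and in wild type it was the same but for C1qa above C1qc. In both groups only Ctss stood clear of the next gene. In db/db P2ry12 also lay clear of Tyrobp, and in wild type the ranges of all other neighbours overlapped.

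**Figure D3:**
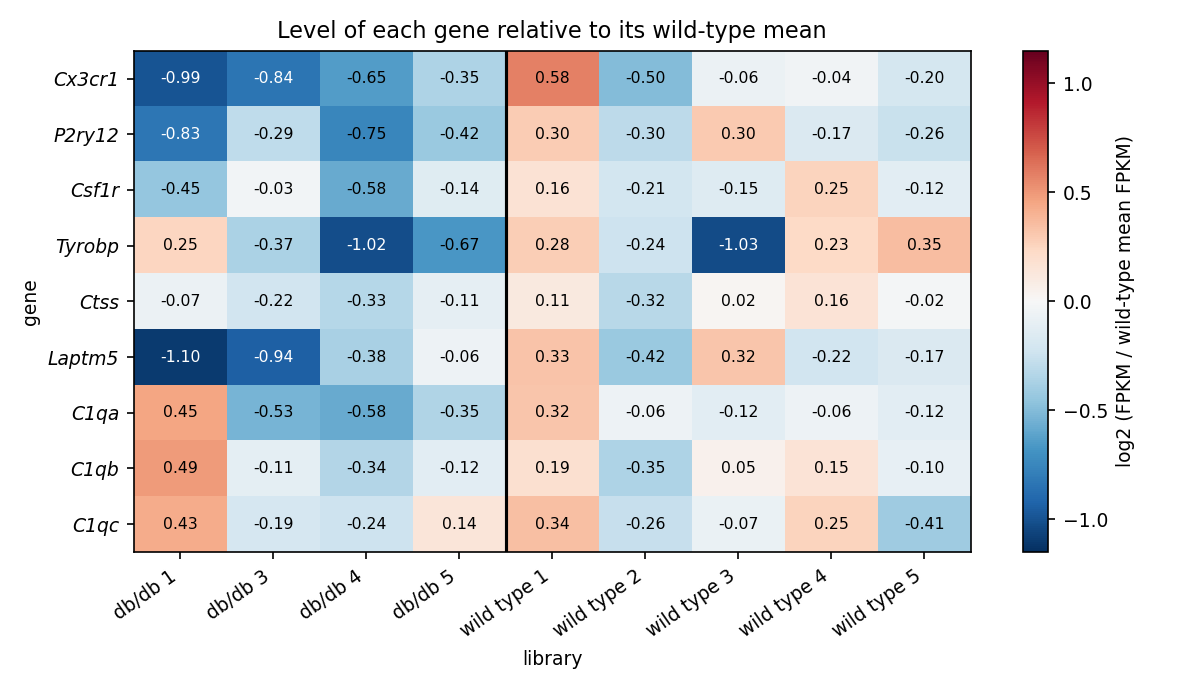
Log2 of FPKM over the wild-type mean for each gene (rows) and library (columns; db/db left of the line, wild type right). Blue is below and red above the wild-type mean. In db/db 1 the C1q genes are at 0.43 to 0.49 while Laptm5, Cx3cr1 and P2ry12 are at -1.10, -0.99 and -0.83.

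Differences between libraries of a group ran across the members. Wild type 1 was above the wild-type median for all 9 members, and wild type 2 was below it for 8. Among db/db libraries db/db 4 was below the wild-type median for 9 of 9, db/db 3 for 8, db/db 5 for 7 and db/db 1 for 5. In db/db 1, the lowest of all 9 values for Cx3cr1, P2ry12 and Laptm5 and the highest of all 9 for C1qa, C1qb and C1qc stood in the same library. Summed over the 6 identity genes, FPKM came to 12.97, 12.4, 10.5 and 12.9 in db/db 1, 3, 4 and 5, against 17.3, 12.2, 14.1, 16.4 and 14.9 in wild type 1 to 5. Summed over the C1q genes it came to 13.5, 8.26, 7.57 and 9.15 in db/db 1, 3, 4 and 5, against 11.9, 8.35, 9.57, 10.7 and 8.62 in wild type 1 to 5. C1q over identity was 1.04 in db/db 1 and 0.667 to 0.720 in the other db/db libraries, against 0.580 to 0.687 in wild type. These sums are given as a description, with no test.

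**Figure D4:**
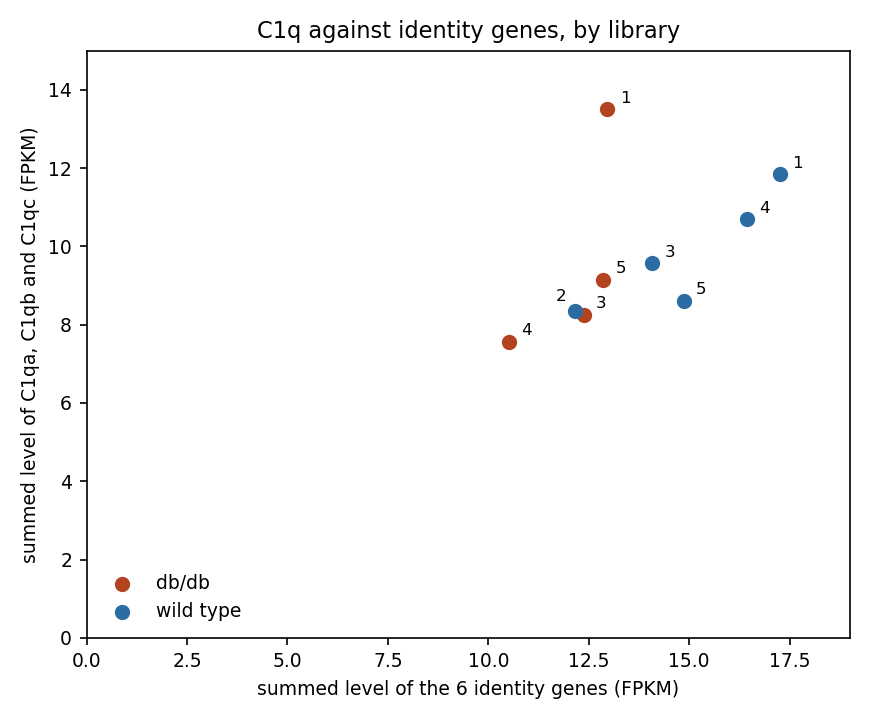
Summed FPKM of C1qa, C1qb and C1qc against summed FPKM of the 6 identity genes, 1 point per library with its number (db/db red, wild type blue). Library db/db 1 lies above the rest at 13.5 FPKM of C1q, with 12.97 FPKM of identity genes.

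The members differ in transcript length, and so did their position in db/db 1. The 5 genes with the shortest longest transcripts (Tyrobp with 597 bases, C1qa 1040, C1qb 1088, C1qc 1203 and Ctss 1355) had log2 ratios to the wild-type mean of 0.25, 0.45, 0.49, 0.43 and -0.07 in db/db 1. The 4 with the longest (P2ry12 with 2344 bases, Laptm5 2600, Cx3cr1 4493 and Csf1r 4701) had -0.83, -1.10, -0.99 and -0.45. Across 14490 tested genes, the deviation of db/db 1 from the wild-type mean had a rank correlation of -0.54 with transcript length, and in the other 8 libraries it lay between -0.18 and 0.24. With median correction for length, an alternative added after seeing the data, C1qa had a log2 change of -0.29 (limma adjusted p = 0.0718), C1qb -0.13 and C1qc -0.08, and Cx3cr1 stayed at -0.28. None of the 9 passed under it.

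**Figure D5:**
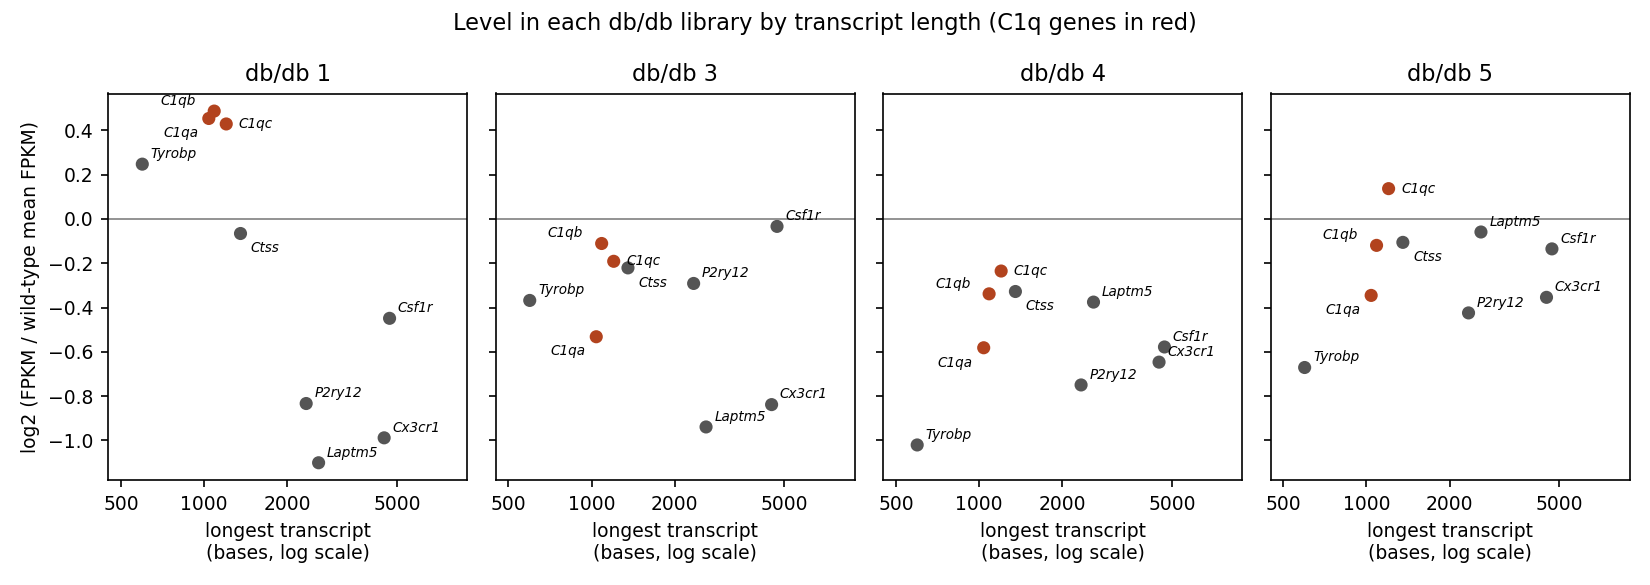
Log2 of FPKM over the wild-type mean against the length of the longest annotated transcript (log axis) for the 9 genes in each db/db library, with C1q genes in red. In db/db 1 the 4 longest lie at -0.45 or lower and the C1q genes at 0.43 to 0.49, and in the other 3 libraries 26 of the 27 values are below 0. These values share libraries and are not independent, and the count was not compared with that of all genes. Single wild-type libraries, not drawn here, also shifted as a whole. All members were below 0 in wild type 2 (-0.50 to -0.06) and above 0 in wild type 1 (0.11 to 0.58).

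Markers of pigment epithelium and blood were also high in db/db 1, while those of lens were not. Pigment epithelium genes summed to 393 FPKM in db/db 1 and to 76.5 to 196 FPKM in the other db/db libraries, against 113 to 183 FPKM in wild type, and erythrocyte genes to 72.6 FPKM in db/db 1 and 21.7 to 23.8 FPKM in the other db/db libraries, against 14.6 to 26.1 FPKM in wild type. Lens genes summed to 74.6 FPKM in db/db 1 and 1.76 to 164.8 FPKM in the other db/db libraries, against 1.36 to 74.7 FPKM in wild type. Their part in the C1q level of db/db 1 was not tested. For other macrophages and blood cells, most defining genes were near 0. Ccr2, a monocyte receptor, averaged 0.0016 FPKM in db/db and 0.0026 FPKM in wild type, and Ly6c2 0.0620 FPKM in db/db and 0.0656 FPKM in wild type. Mrc1 and Cd163, of perivascular macrophages, averaged 0.109 and 0.0882 FPKM in db/db and 0.127 and 0.0764 FPKM in wild type. The 7 perivascular genes in the table summed to 4.21 to 9.13 FPKM in db/db and 3.66 to 5.49 FPKM in wild type, most of it Lyve1 and Cbr2, with 4 of the 7 under 0.1 FPKM. Of the 7, 2 were tested and neither passed. Their median log2 change was 0.41 (0.39 without db/db 1), and 1 of the 2 was below 0. The 8 monocyte and neutrophil genes summed to 2.35 to 6.01 FPKM in db/db and 2.17 to 4.19 FPKM in wild type, mostly Lyz2, with 5 of the 8 under 0.1 FPKM. The 6 lymphocyte genes in the table summed to 0.559 to 0.873 FPKM in db/db and 0.418 to 0.818 FPKM in wild type, with Cd3e, Cd3d and Nkg7 under 0.1 FPKM.

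After centring each gene on its group means, C1qa, C1qb and C1qc had Pearson correlations of 0.77 to 0.84 with each other over the 9 libraries. Ctss had 0.80 with C1qb and 0.75 with C1qc, and Cx3cr1 had 0.78 with Laptm5 and 0.65 with P2ry12. The 18 pairs of an identity gene with a C1q gene had a median of 0.23, from -0.18 (Laptm5 with C1qa) to 0.80. These are descriptions over points that share library, depth and length effects. With all values centred in this way, among the tested genes most like the mean profile of the 6 tested members were Rarres2 (0.99), Nr2f1 (0.97), Col9a3 (0.97), Ankrd9 (0.96), Ephx1 (0.96), Cbr3 (0.96), Rmnd5b (0.95), Shisa5 (0.95) and Plin2 (0.95), the extremes of 14588 genes over 9 libraries. None of these 9 genes passed in db/db (limma adjusted p = 0.262 to 0.964).

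None of the 3 ligands of the member receptors passed the test. Cx3cl1, which encodes fractalkine, stood at 30.6 ± 1.62 FPKM (SD, n = 4) in db/db and 30.3 ± 2.60 FPKM (SD, n = 5) in wild type (log2 change 0.01, limma adjusted p = 0.923). Il34 had 3.27 ± 0.404 FPKM (SD, n = 4) in db/db and 3.85 ± 0.591 FPKM (SD, n = 5) in wild type (-0.18, limma adjusted p = 0.364), and Csf1 had 1.03 FPKM in both groups. Cx3cl1 was thus far more abundant than its receptor, as a bulk level per length.

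Of 30 other microglia identity genes 9 reached the filter, and none of the 9 rose or fell. Their median log2 change was 0.09 (0.03 without db/db 1), and 2 of the 9 were below 0. Of these 9, the pair with the smallest p were Sparc (47.4 FPKM in db/db and 37.96 FPKM in wild type, log2 change 0.30, limma adjusted p = 0.180, and 0.18 without db/db 1) and Cst3, cystatin C (517 FPKM in db/db and 396 FPKM in wild type, 0.34, adjusted p = 0.313, and 0.15 without db/db 1), which other retinal cells also express. Tmem119, a defining microglial gene, was under the filter at 0.586 ± 0.112 FPKM (SD, n = 4) in db/db and 0.670 ± 0.120 FPKM (SD, n = 5) in wild type. TREM2 signals through the Tyrobp product, and none of the 12 genes of its partners and downstream enzymes reached the filter, with Trem2 at 0.275 FPKM in db/db and 0.273 FPKM in wild type. Among lineage factors 3 of 10 were tested and none passed (Bhlhe41 had a log2 change of 0.25 and Mef2c of -0.06, limma adjusted p = 0.370 and 0.786, and 0.09 and 0.07 without db/db 1), and Spi1 stood at 0.153 FPKM in db/db and 0.168 FPKM in wild type.

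Genes of activated microglia, 22 fixed and 9 tested, had no member past the threshold, with a median log2 change of 0.11 (-0.05 without db/db 1). Which cells their RNA came from was not tested. Apoe, one of the 9, averaged 330 FPKM in db/db and 273 FPKM in wild type, far above the 6 identity genes. Lgals3, galectin 3, had 1.76, 0.883, 4.31 and 0.618 FPKM in db/db 1, 3, 4 and 5, against 0.354 to 0.877 FPKM in wild type (log2 change 0.68, limma adjusted p = 0.262), so that its mean rested on db/db 1 and db/db 4. Gpnmb, a glycoprotein of lysosome-laden macrophages that pigment cells also express, averaged 6.65 FPKM in db/db and 4.26 FPKM in wild type (0.50, adjusted p = 0.194). Gpnmb had 10.2 FPKM in db/db 1 and 4.71 to 5.93 FPKM in the other db/db libraries, and its log2 change without db/db 1 was 0.30. Without db/db 1 Spp1, osteopontin, was lower (-0.40, limma adjusted p = 0.0354), and with all libraries it stood at -0.23 (adjusted p = 0.454). Il1b, Tnf, Ccl2 and Itgax were each under 0.1 FPKM on average over the 9 libraries.

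Among C1q receptors and classical pathway partners 6 of 13 were tested and none passed with all libraries, with a median log2 change of -0.14 (-0.03 without db/db 1). Calr, which encodes calreticulin, a binding partner of C1q and a chaperone of the endoplasmic reticulum, had 142, 102, 127 and 107 FPKM in db/db 1, 3, 4 and 5, against 152 to 164 FPKM in wild type, without overlap (log2 change -0.43, SE 0.10, limma adjusted p = 0.0735). Without db/db 1 Calr fell (-0.52, limma adjusted p = 0.00843). Mertk, a receptor for the uptake of dying cells, had -0.24 (adjusted p = 0.284), and -0.16 without db/db 1.

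Of 14 cathepsins, cystatins and legumain other than Ctss, 13 were tested. None passed and 12 had log2 changes above 0, with a median of 0.14, which was -0.01 without db/db 1. Lgmn, the lysosomal protease legumain, had 101, 83.3, 82.9 and 95.9 FPKM in db/db 1, 3, 4 and 5, against 70.2 to 77.3 FPKM in wild type (log2 change 0.31, limma adjusted p = 0.0781), and it rose without db/db 1 (0.26, limma adjusted p = 0.0277). Ctso had 0.15 (adjusted p = 0.237). The relatives of Laptm5 did not pass (Laptm4a 0.01 and Laptm4b 0.08, limma adjusted p = 0.973 and 0.641). Without db/db 1 they stood at -0.17 and 0.0014 (adjusted p = 0.115 and 0.990).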

How the data were processed

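The authors deposited 1 table of FPKM values for 35397 genes and 9 retina libraries, named by them as fragments scaled by transcript length and depth. Per the submitters' processing notes the genome was mm10, and 1.3 ug of RNA went into each library, per the labels. The aligner, the counter and the strand of counting were not given in the sources used here. Control columns were taken as wild type and DR columns as db/db by number, an inference from the names. Symbols, positions, exon and transcript lengths came from GENCODE M21 (same assembly), for 34499 identifiers. FPKM times exon length fell on whole reads, within 0.1 read, for 99.0% to 99.1% of low values, which gave 36.6 to 47.9 M reads per library. No libraries were identical.

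Values were tested as log2(FPKM + 1) with limma 3.58.1 (lmFit, eBayes with trend) in R 4.3.3, for the 14588 genes averaging 1 FPKM or more, with no covariate, and adjusted over all of them at 0.05. Members below the filter came from a fit of all genes. C1q ratios were tested by exact permutation with scipy 1.17.1. The steps were tested on simulated data. The 9 members and the gene lists were chosen with earlier results of these data known. Named genes are the members, from each list up to 4 genes that passed (if none, the 2 tested genes of smallest p), and the 10 most like the members' profile, of which 1 is not reported here. Others were named after their values were seen. Alternatives were other pseudocounts, filters and scalings, array weights, corrections for GC content and length in 20 bins, limma-voom on recovered reads, a replicate block and leaving out each library. The length correction and the reads without db/db 1 were added after seeing the data.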

Additional observations from a re-analysis of the deposited data

Results flagged for a closer look

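Dixon's ratio was computed for single high or low libraries in 112 groups of 4 or 5 libraries (members, their sums and ratios, and the named genes), and 10 values stood apart. Chance marks about 1 in 20 such groups.

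C1qa was marked in both groups, at 4.02 FPKM in db/db 1 where the other db/db libraries had 1.96 to 2.31 FPKM, and at 3.66 FPKM in wild type 1 where the others had 2.70 to 2.82 FPKM. The summed C1q level over the summed identity level was 1.04 in db/db 1, against 0.667 to 0.720 in the other db/db libraries. In the same library Mef2c was low at 5.41 FPKM, against 8.02 to 8.25 FPKM in the other 3. Sparc (60.3 FPKM), Pmel of pigment cells (28.4 FPKM), and the globin genes Hba-a1 (25.6 FPKM) and Hba-a2 (9.23 FPKM) were high in db/db 1, where the other db/db libraries reached 44.6, 10.5, 9.99 and 2.09 FPKM. In wild type, Calr was low in wild type 2 at 152.2 FPKM, against 160.4 to 163.6 FPKM, and Gpnmb was high in wild type 4 at 5.61 FPKM, against 3.63 to 4.20 FPKM.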

How the results depend on the processing

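Over 24 alternatives the log2 changes of Cx3cr1, P2ry12, Csf1r, Tyrobp, Ctss, Laptm5 and C1qa kept their negative sign, while C1qb was below 0 in 17 and C1qc in 8. The count of members past the threshold was 0 in 22 of 24, and 1 (C1qa) with the GC correction without db/db 1. Leaving out each library in turn gave 0 to 1 members, the 1 without db/db 1. The members' median of -0.20 ran from -0.24 to -0.13 over the 9 left-out libraries, and it reached -0.45 on the recovered reads without db/db 1. The C1q chain ratios did not pass in any of 10 alternatives, and the sign of C1qb over C1qc changed in 1. With db/db 1 left out, both C1qa ratios had the smallest p that so few libraries allow. That alternative therefore cannot settle whether they differ.

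Genes higher and lower in db/db over the whole table numbered 34 and 39. They were 7 and 2 with no filter, 17 and 13 with a filter at 5 FPKM, 21 and 15 with equal sums (58.3% of calls higher against 46.6%), 550 and 656 with array weights, 5 and 1 with the GC correction, 270 and 243 with the length correction, 374 and 341 with the GC correction without db/db 1, 46 and 64 on recovered reads, and 897 and 1104 on recovered reads without db/db 1. Leaving out 1 library gave 3 to 688 higher and 1 to 852 lower, with both highest values without db/db 1 and at most 8 higher and 5 lower in the other 8 cases. With the replicate number as a block, on the 8 libraries that share numbers, 2 were higher and 0 lower (1601 at an unadjusted p under 0.05), and no member passed. Deviations of same-numbered libraries correlated at -0.18 to 0.13, and the labels do not say whether the numbers pair the samples. Tyrobp rested on the fewest reads of the members, 30 to 86 per library.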

Other observations

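Of the 30 other microglia identity genes, 21 lay below the filter of 1 FPKM, and 18 of these had log2 changes below 0, where 52.8% of all genes below the filter did. None passed over all genes (limma and limma-voom), and 5 had an unadjusted p under 0.05, all of them lower in db/db, where 3.69% of genes below the filter did so. Both shares are over genes of any level below the filter, and genes of a like level were not compared. They were named after their values were seen. Fcrls, an Fc receptor-like gene used as a mouse microglia marker, had 0.111, 0.106, 0.0312 and 0.234 FPKM in db/db 1, 3, 4 and 5, against 0.573, 0.219, 0.432, 0.405 and 0.282 FPKM in wild type 1 to 5. That is 12, 11, 3 and 20 reads in db/db, against 64, 22, 46, 42 and 30 in wild type, and only db/db 5 reached into the wild-type range. Its log2 change was -0.30 (SE 0.08, unadjusted p = 0.00467, limma adjusted p = 0.192), and -1.86 on the recovered reads (limma-voom adjusted p = 0.156).

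Siglech, a sialic acid-binding receptor that pairs with DAP12, had 0.276, 0.213, 0.251 and 0.226 FPKM in db/db 1, 3, 4 and 5, against 0.289 to 0.605 FPKM in wild type, with no overlap (limma adjusted p = 0.376). Gpr34, a lysophospholipid receptor, averaged 0.200 FPKM in db/db and 0.400 FPKM in wild type (limma adjusted p = 0.316). P2ry6, a receptor for UDP, averaged 0.0583 FPKM in db/db and 0.123 FPKM in wild type (limma adjusted p = 0.304). Adgre1, the F4/80 antigen, averaged 0.0919 FPKM in db/db and 0.190 FPKM in wild type (limma adjusted p = 0.385). In each of these 3 the groups overlapped.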
